A study of Arabidopsis thaliana with 14 samples.

Results

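How the root tip transcriptome moves on under continued applied cytokinin was read from 4 arrays, 2 of root tips after 12 h of trans-zeatin and 2 after 24 h, out of 14 in the series. They were chosen by their labelled treatment and time and by no measured value. The series is about how auxin and cytokinin act on each other in the apex of the Arabidopsis thaliana primary root. AtIPT8/pga22 seedlings (background Wassilewskija) grew for 7 days on upright agar plates, were covered with liquid medium holding 5 µM trans-zeatin, and gave up the last 5 mm of the primary root. The reference groups were control root tips in medium alone (3 arrays at 12 h, 2 at 24 h) and root tips in medium with 5 µM 17-beta-estradiol (3 arrays at 12 h, 2 at 24 h). All 6 groups carry the same line, in which estradiol is known to switch on the cytokinin-making enzyme IPT8, and which the labels also call a T-DNA knock-out of IPT8. No probe set named here reads IPT8. The trans-zeatin groups received no estradiol, so they describe applied cytokinin in seedlings that carry the inducible gene.

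Trans-zeatin is one of the main natural cytokinins. Plant cells sense it with receptor kinases, and a relay of phosphate groups reaches type-B response regulators in the nucleus, which switch on target genes. Among the first targets are the type-A response regulators, which dampen the pathway, and enzymes that glycosylate or oxidise cytokinin lower its level. In roots, cytokinin is known to move cells out of the dividing zone and to oppose the start of lateral roots.

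Each array carries short probes grouped into probe sets, most of which read 1 gene, and the values below are signal intensities per array. Folds and log2 changes were computed on signal plus 6.3, which keeps dim probe sets from giving large ratios and understates their change. Called means an adjusted p under 0.05 in limma over the 15605 probe sets kept. Nothing says that the replicates came from separate cultures, so the tests measure the spread between these samples. In a bulk sample, a lower signal from fewer cells of a type and from less RNA per cell cannot be told apart. Hours of exposure, hours in liquid and the clock time of harvest cannot be told apart within trans-zeatin either. The same interval in control and estradiol medium is therefore given beside most of the changes.

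The 4 arrays resembled each other closely. Spearman's rho over the probe sets was 0.945 between the 12 h replicates, 0.968 between the 24 h replicates, and from 0.928 to 0.958 between the times. The 12 h replicates were thus less alike than the closest pair of different times. On the second principal component, which held 13.6% of the variance over all 14 arrays, the 24 h arrays lay at -26.5 and -22.4 and the 12 h arrays at -8.39 and 13.1. The arrays that stood apart there were control 12 h replicate 3 (37.1) and estradiol 12 h replicate 1 (32), neither of them treated with trans-zeatin. The trans-zeatin 12 h replicates also lay apart from each other on the first component (27.2%), at 19.5 and 34.6. On that component the trans-zeatin 24 h arrays lay at 12.3 and 15.7. Measures of RNA quality moved with time. The first was the actin control signal at the 3′ end over that at the 5′ end. It was 2.85 and 2.55 at 12 h and 4.30 and 3.71 at 24 h. It also rose with time in control medium (from 3.23 to 4.93 at 12 h, 6.24 and 6.44 at 24 h). In estradiol it rose as well (from 2.37 to 3.31 at 12 h, 4.36 and 4.85 at 24 h). In trans-zeatin the same ratio rose for GAPDH, from 1.28 and 0.943 to 1.33 and 1.48. For ubiquitin it rose there from 0.883 and 0.814 to 0.97 and 1.21. In control the times overlapped for GAPDH and ubiquitin. In estradiol the GAPDH times overlapped, and ubiquitin read from 0.902 to 1.09, then 1.1 and 1.43. Of the root meristem regulators, 3 were measured. BBM, a stem cell factor, read 13.7 and 14.9 at 12 h and 18.1 and 15.9 at 24 h, under the filter of 23 in all 4 arrays. JKD, a zinc finger protein of the ground tissue, read 44.3 and 28.6, then 36.8 and 25.0, so that its 2 times overlapped. UPB1, which sets where dividing cells begin to elongate, read 102 and 218, then 141 and 118, and overlapped too. None of these 3 of 16 listed meristem genes was called. Of 29 listed photosynthesis genes 2 were measured and neither was called: the light-harvesting gene LHCB4.1 read 225 and 140, then 134 and 233, and the chlorophyll synthesis gene PORB 74.8 and 43.3, then 5.98 and 30.4.

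Between 12 and 24 h of trans-zeatin, 50 probe sets changed, which is 0.32% of those tested. Of these, 18 were higher at 24 h (0.115%) and 32 lower (0.205%), and 16 of the 18 and all 32 differed by at least 2-fold. The 2 arrays of one time did not overlap the 2 of the other in any of the 50, as was also the case in 6832 of all 15605 probe sets (43.8%). Not overlapping was also a condition for naming a risen or fallen gene. The separation of the arrays of those genes below is therefore no further support. The genes that fell included 2 of flavonoid metabolism (CHIL and UGT78D2), the light-signalling factor HYH and the cold-regulated COR27. Those that rose included the clock-associated GI and the cell wall genes XTH20 and TBL36. Only 21 of the 50 probe sets have exactly 1 gene named, 10 of them higher and 11 lower, and the other 29 have none.

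**Figure D1:**
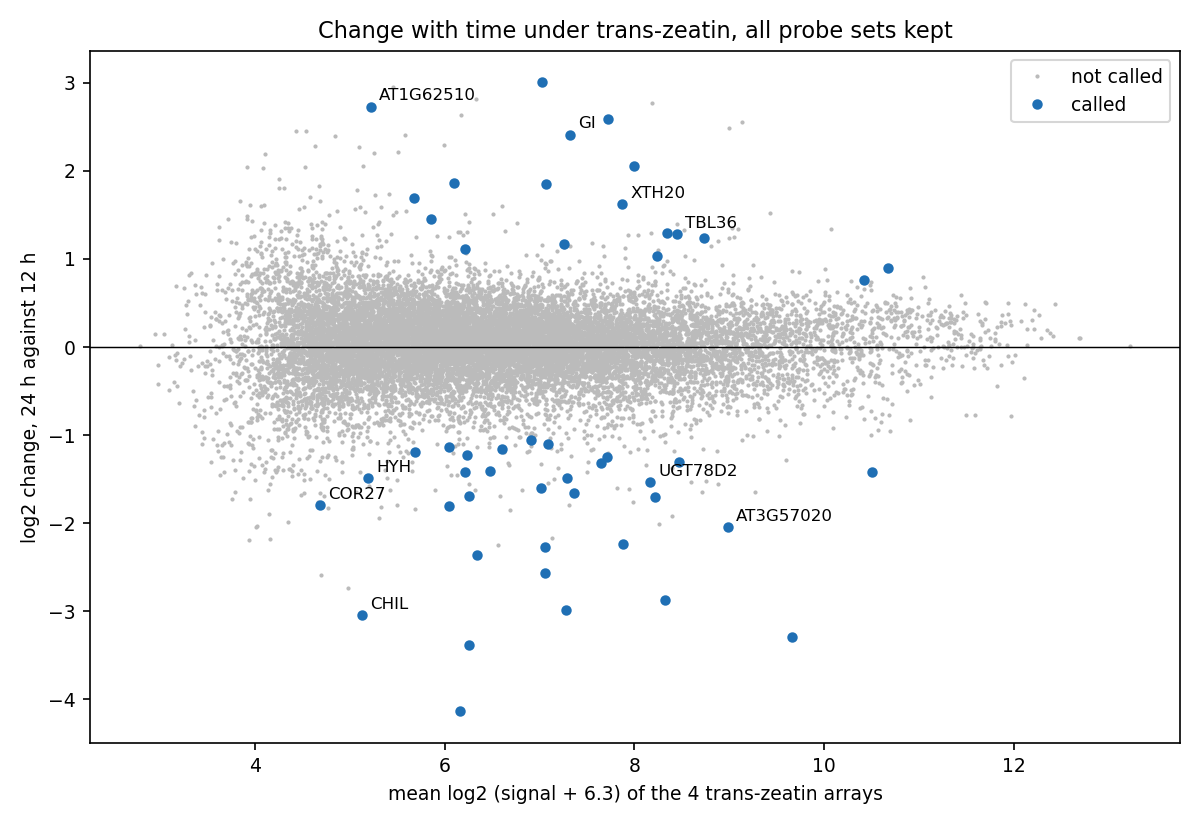
Change from 12 to 24 h of trans-zeatin (log2, vertical) against the mean log2 signal (horizontal) for the 15605 probe sets kept, with called probe sets marked. The bulk lies around a median of 0.04, and the calls reach 3.01 above and -4.14 below.

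The median change over all probe sets was 0.04 on the log2 scale and 54.7% of them lay above 0, so that the array-wide shift was small beside the called changes. At an unadjusted p under 0.05 there were 1777 probe sets (11.4%). The number of calls changed with single arrays and with the actin ratio. There were 10 without trans-zeatin 24 h replicate 1 and 128 without trans-zeatin 12 h replicate 1. With the actin ratio as a covariate 7 probe sets were called, all 7 among the 50 and none with 1 named gene. Under that covariate all 21 named genes kept their direction, with 11 of the 21 changes smaller. All 21 standard errors were larger, for example 0.47 beside 0.34 for GI and 0.38 beside 0.27 for XTH20. The actin ratio was higher at 24 h in all 3 media, so the covariate is not independent of time.

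CHIL and UGT78D2, which act in flavonoid metabolism, fell. Flavonoids are phenolic pigments and signals that roots make in response to light, and several of them are known to slow auxin transport. CHIL, a chalcone isomerase-like protein that raises flavonoid production, read 95.9 and 92.0 at 12 h and 3.64 and 8.54 at 24 h. Both 24 h arrays were near the bottom of the signal scale, and the times did not overlap, as the rule for naming required. CHIL fell by 3.05 ± 0.45 (SE) on the log2 scale (8.26-fold, adjusted p = 0.0065). It fell in control medium too, by 2.26 ± 0.41, and in estradiol by 2.27 ± 0.41.

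UGT78D2, which attaches glucose to flavonols and anthocyanidins, read 425 and 551 at 12 h and 145 and 182 at 24 h. Its 24 h arrays lay well below its 12 h arrays. It fell by 1.54 ± 0.20 (2.9-fold, adjusted p = 0.0024), next to 0.97 ± 0.18 (adjusted p = 0.03) in estradiol and a log2 change of -0.79 ± 0.18 in control (adjusted p = 0.093). DFR, a later enzyme of anthocyanin synthesis, had a log2 change of -0.16 ± 0.46 and was not called. Of these 3 measured of 6 flavonoid genes, a list put together after their values were seen, 2 fell and 1 did not pass. The median of the 3, -1.54, is the value of UGT78D2 itself. It describes how the list was chosen and is not a result about flavonoid genes.

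HYH, a bZIP factor that acts with HY5 in light responses, read 54.0 and 56.0 at 12 h and 13.6 and 17.6 at 24 h. The pairs were tight and far apart. It fell by 1.49 ± 0.27 (2.81-fold, adjusted p = 0.032), in control by 1.51 ± 0.25 (adjusted p = 0.015), and in estradiol its change was -0.45 ± 0.25 (adjusted p = 0.6).

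**Figure D2:**
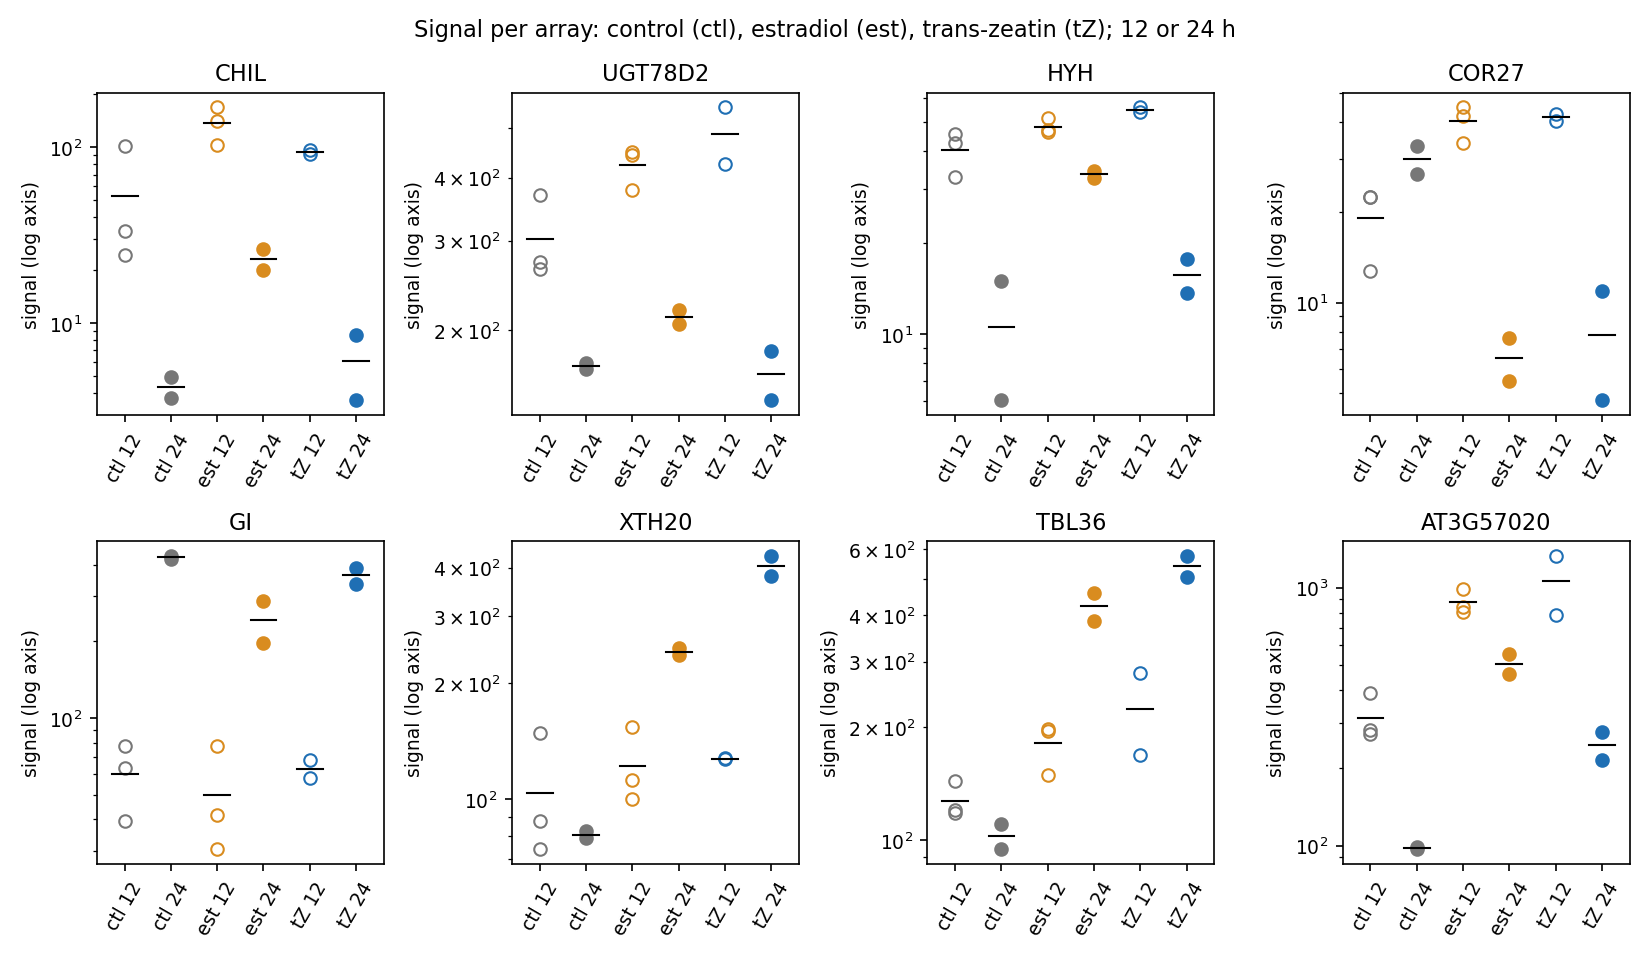
Signal per array (log axis) of 8 genes in control, estradiol and trans-zeatin medium, with open points for 12 h, filled points for 24 h and a bar at each group mean. In trans-zeatin CHIL, UGT78D2, HYH, COR27 and AT3G57020 lie lower at 24 h and GI, XTH20 and TBL36 higher. The control changes of COR27, XTH20 and TBL36 were not called.

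Of 18 listed circadian clock genes 2 were measured, GI and CCL, and 1 of them, GI, rose. GI, a large protein that passes the phase of the clock to flowering and growth, read 58.0 and 68.4 at 12 h and 337 and 389 at 24 h. The 24 h arrays stood far above the 12 h arrays. It rose by 2.41 ± 0.34 on the log2 scale (5.31-fold, adjusted p = 0.0051). The rise was 2.75 ± 0.31 in control and 2.21 ± 0.31 in estradiol, both called, and the difference between trans-zeatin and control was -0.34 (95% interval -1.33 to 0.66). CCL, whose transcript follows the clock, read 53.9 and 47.7, then 68.5 and 60.3, and was not called (0.31 ± 0.31).

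COR27, a cold-regulated protein that represses evening genes of the clock, read 42.6 and 40.4 at 12 h and 4.72 and 10.9 at 24 h. The signal at 24 h was close to the bottom of the scale. It fell by 1.80 ± 0.32 (3.47-fold, adjusted p = 0.027). In estradiol it fell by 1.86 ± 0.29 (adjusted p = 0.0073), whereas its control arrays read from 12.7 to 22.5 at 12 h and 26.9 and 33.2 at 24 h, a change of 0.53 ± 0.29 that was not called. The difference between the time changes in trans-zeatin and control was -2.33 (95% interval -3.25 to -1.40) and was not called over all probe sets (adjusted p = 0.16).

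Among cell wall genes, XTH20 and TBL36 rose. XTH20 belongs to the enzymes that cut and rejoin xyloglucan, the polymer that ties cellulose fibrils together. It read 128 and 127 at 12 h and 430 and 380 at 24 h. The 12 h arrays were almost equal and below both 24 h arrays. It rose by 1.62 ± 0.27 (3.07-fold, adjusted p = 0.017). In control, its 12 h arrays read from 74.2 to 149 and its 24 h arrays 79.2 and 82.4, so that the control times overlapped (-0.28 ± 0.24). In estradiol the change was 0.97 ± 0.24 (adjusted p = 0.13). The difference from control was 1.90 (95% interval 1.12 to 2.67, adjusted p = 0.16).

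Its family did not move as a group. Of 8 measured xyloglucan endotransglucosylases, 1 rose, none fell and 7 did not pass, and their median was -0.27 beside 0.04 over all probe sets. The members next lowest in p were EXGT-A3 (-0.42 ± 0.23), XTH18 (-0.67 ± 0.41) and XTH32 (-0.71 ± 0.46).

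TBL36 is one of the TRICHOME BIREFRINGENCE-LIKE proteins, a family whose members acetylate cell wall polysaccharides. It read 280 and 169 at 12 h and 576 and 504 at 24 h. The lower 24 h array was above the higher 12 h array, as the rule for naming required. It rose by 1.28 ± 0.23 (2.43-fold, adjusted p = 0.031), by 1.2 ± 0.21 in estradiol (adjusted p = 0.018), and had a change of -0.30 ± 0.21 in control. The difference from control was 1.58 (95% interval 0.91 to 2.25, adjusted p = 0.19). Of 18 measured probe sets of the family (17 genes), a group added after the values were seen, 1 rose and 17 did not pass, with a median of 0.07.

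The other 14 named genes of the rule are known here by locus only, so their values are given without a role. The largest rise was that of AT1G62510, which read 3.70 and 14.6 at 12 h and 86.5 and 92.5 at 24 h. It rose by 2.73 ± 0.48 on the log2 scale (adjusted p = 0.027). Its 12 h arrays lie under the filter of 23, so the size depends on the pseudocount: it was 3.4 with a pseudocount of 1 and 2.28 with the doubled one. The change was 0.82 ± 0.44 in control and 1.18 ± 0.44 in estradiol. Its 24 h level in trans-zeatin (89.5 ± 4.21 SD, n = 2) lay beside that of control at 24 h (91.0 ± 38.7), and at 12 h control read 48.3 ± 15.9 (n = 3) and trans-zeatin 9.13 ± 7.67 (n = 2).

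AT3G27400 read 159 and 89.1 at 12 h and 691 and 382 at 24 h and rose 4.15-fold (2.05 ± 0.35, adjusted p = 0.02). Its estradiol rise was 1.63 ± 0.32 (adjusted p = 0.036), and its control change of 0.82 ± 0.32 did not pass. AT5G07030 read 363 and 202, then 698 and 597, and rose by 1.23 ± 0.24 (adjusted p = 0.044). Like TBL36 it rose in estradiol (1.14 ± 0.22) and had a negative change in control (-0.50 ± 0.22), and the difference from control was 1.73 (95% interval 1.05 to 2.42, adjusted p = 0.16).

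AT4G16180 and AT4G30660 rose in trans-zeatin and had negative changes in estradiol. AT4G16180 read 97.1 and 93.6, then 212 and 234, a rise of 1.17 ± 0.23 (adjusted p = 0.047), while in estradiol its change was -0.70 ± 0.21 and not called. AT4G30660 read 220 and 191, then 461 and 393, a rise of 1.03 ± 0.18 (adjusted p = 0.02), next to 0.91 ± 0.16 in control (adjusted p = 0.022) and -0.21 ± 0.16 in estradiol. The differences from estradiol, 1.87 for AT4G16180 (adjusted p = 0.15) and 1.24 for AT4G30660 (adjusted p = 0.23), did not pass. AT5G02580 rose 2.74-fold (adjusted p = 0.039) and AT4G14270 2.45-fold (adjusted p = 0.019). Their log2 changes were 0.435 and 0.653 in control and 0.588 and 0.296 in estradiol, none of them called.

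Of the locus-only genes that fell, AT3G57020 had the largest change. It read 784 and 1330 at 12 h and 214 and 276 at 24 h. The times were far apart although the 12 h arrays differed. It fell by 2.04 ± 0.25 (4.12-fold, adjusted p = 0.0015), in control by 1.59 ± 0.23 (adjusted p = 0.0073), and had a change of -0.79 ± 0.23 in estradiol (adjusted p = 0.21). Trans-zeatin stood above control at both times, 1060 ± 386 against 313 ± 65.7 at 12 h and 245 ± 43.9 against 98.1 ± 1.48 at 24 h.

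AT3G52740 read 237 and 203, then 50.9 and 90.4, and fell by 1.60 ± 0.24 (adjusted p = 0.007). AT1G47530 read 278 and 345, then 116 and 126, and fell by 1.31 ± 0.19 (adjusted p = 0.0065). Both fell in estradiol as well, by 1.08 ± 0.22 and 1.07 ± 0.18. AT1G73650 read 307 and 326, then 124 and 135, and fell by 1.25 ± 0.20 (adjusted p = 0.016). AT5G08050 (-1.42 ± 0.27), AT5G37550 (-1.19 ± 0.21) and AT2G25530 (-1.14 ± 0.22) also fell, at adjusted p from 0.028 to 0.047. In control the changes of these 6 genes lay between -0.65 and -0.42, and none of them was called there. In estradiol AT2G25530 fell too, by 0.99 ± 0.20 (adjusted p = 0.044). The estradiol changes of AT1G73650 (-0.28), AT5G08050 (-0.14) and AT5G37550 (-0.68) were not called.

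**Figure D3:**
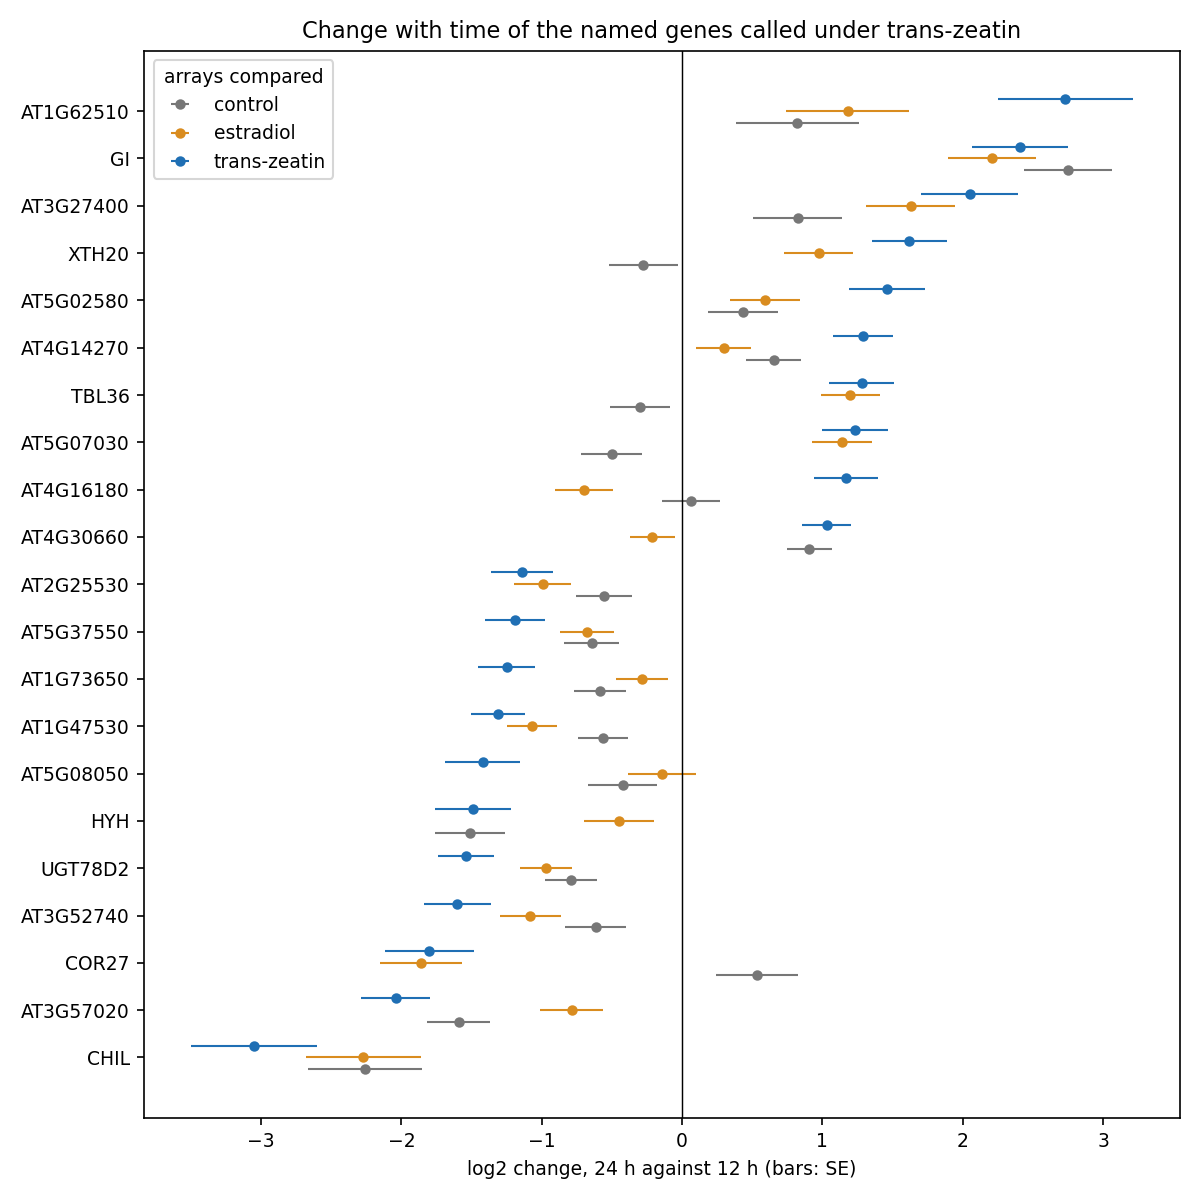
Change from 12 to 24 h (log2 ± SE) of the 21 called genes with a name or locus, in control, estradiol and trans-zeatin medium. GI and CHIL were called in all 3 media. COR27, XTH20, TBL36 and AT5G07030 lie on opposite sides of 0 in control and trans-zeatin, and neither their control changes nor their differences from control were called.

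The 3 largest changes of all were in probe sets without a gene name. The probe set 250533_at read 253 and 341 at 12 h and 4.80 and 20.0 at 24 h, and fell by 4.14 ± 0.45 (adjusted p = 0.00049; -4.74 with a pseudocount of 1 and -3.69 with the doubled one). The probe set 249063_at read 179 and 319, then 12.8 and 22.9, and fell by 3.38 ± 0.36 (adjusted p = 0.00043). Its 24 h arrays lie under the filter of 23. The change was -3.72 with a pseudocount of 1 and -3.07 with the doubled one. The probe set 250207_at read 2090 and 3050, then 234 and 272, and fell by 3.29 ± 0.32 (adjusted p = 0.00019). All 3 fell in both other media too. In control 250207_at went lower still, from 1430 ± 644 (SD, n = 3) to 33.1 ± 3.3 (n = 2). It fell by 5.10 ± 0.29 there, and the difference of 1.81 between trans-zeatin and control was not called (adjusted p = 0.3).

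A further 6 genes were picked from earlier results of these data for their difference from control, so that their distance from control describes the choice. From 12 to 24 h of trans-zeatin none of the 6 was called. RR16, also called ARR16, is a type-A response regulator. It read 66.1 and 76.8 at 12 h and 87.4 and 84.9 at 24 h, against 5.31 to 11.6 and 5.25 to 7.17 in control. The 2 times did not overlap, as in 43.8% of all probe sets. The change of 0.25 ± 0.28 (95% interval -0.34 to 0.84) was within the error (adjusted p = 0.77). ARR15, of the same class, read 25.6 and 20.0, then 35.9 and 36.6, against 1.68 to 13.7 and 0.976 and 2.57 in control, and its difference from control at 12 h was not called (adjusted p = 0.055). Its time change was not called either (0.55 ± 0.42, 95% interval -0.34 to 1.45, adjusted p = 0.64). These are 2 of 10 listed type-A response regulators; 0 of 2 passed and their median was 0.40. In estradiol their median was 0.43 and in control -0.35, and no change was called in either.

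AT3G28320 read 922 and 879 at 12 h and 1350 and 1430 at 24 h in trans-zeatin, a change of 0.62 ± 0.27 that was not called (adjusted p = 0.4). In control it read from 53.2 to 102 at 12 h and 25.0 and 22.1 at 24 h, a fall of 1.51 ± 0.24 (adjusted p = 0.014). The gap to control was therefore 10.7-fold at 12 h and 46.7-fold at 24 h, 2 values that share their trans-zeatin arrays with the time comparison. The difference of the time changes was 2.13 (95% interval 1.36 to 2.91, adjusted p = 0.16). Of the alternatives tried, it was called only without control 12 h replicate 1 (2.39, adjusted p = 0.042). AT4G11190 had changes of the same signs, with 747 and 1210, then 1950 and 1330 in trans-zeatin (0.75 ± 0.50). Its change was -1.61 ± 0.46 in control, and neither was called. Its gap to control was 10.1-fold at 12 h and 51.8-fold at 24 h. The difference of its time changes, 2.36, was not called (adjusted p = 0.4).

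Among genes that trans-zeatin held below control, ATC, a relative of the flowering repressor TFL1, read 75.5 and 21.2 at 12 h and 17.9 and 2.59 at 24 h. The 12 h arrays were far apart, and the change of -1.69 ± 0.57 was not called (adjusted p = 0.3). Control arrays read from 951 to 1330 at 12 h and 1280 and 918 at 24 h. AT5G10130 read 15.9 and 14.9, then 30.5 and 27.2 (0.69 ± 0.25, adjusted p = 0.32), against 278 to 534 and 218 and 214 in control. Its gap to control was 17.2-fold at 12 h and 6.32-fold at 24 h. The difference of its time changes, 1.44, was not called (adjusted p = 0.3).

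**Figure D4:**
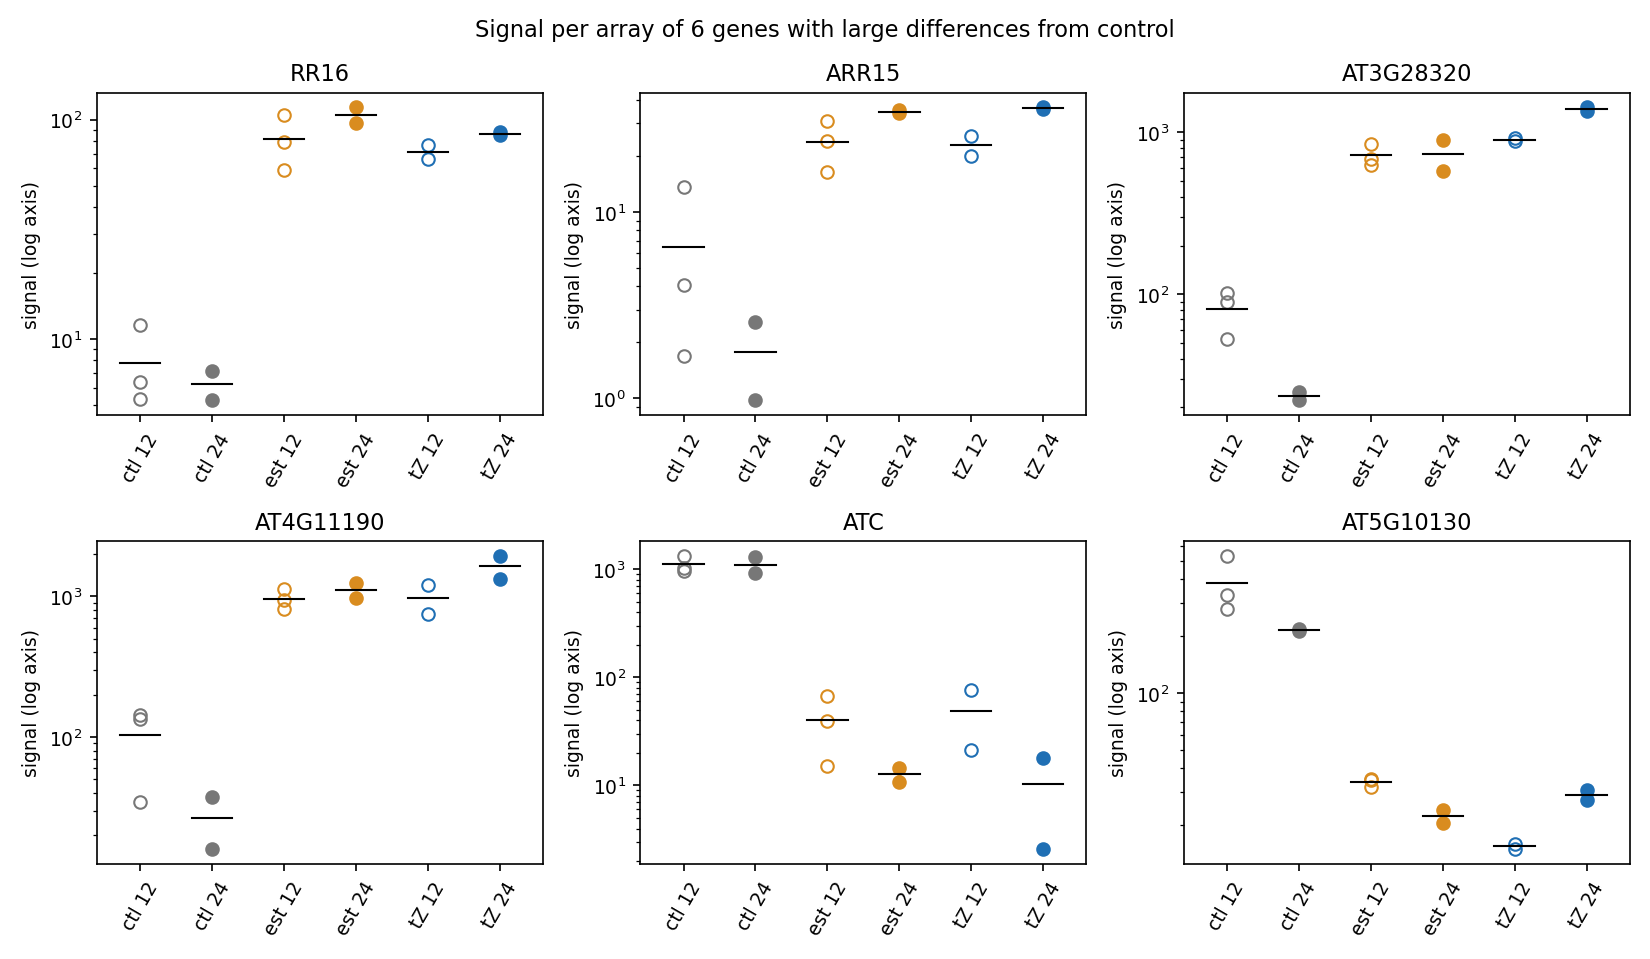
Signal per array (log axis) of RR16, ARR15, AT3G28320, AT4G11190, ATC and AT5G10130 in the 3 media, open points for 12 h, filled points for 24 h and a bar at each group mean. In trans-zeatin the arrays of the 2 times do not overlap for RR16, ARR15, AT3G28320, AT4G11190, ATC and AT5G10130, and none of these changes was called. The times did not overlap in 43.8% of all probe sets either.

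The other cytokinin and auxin lists had few measured members, and none of those was called. Of the genes that remove cytokinin, 2 of 12 were measured (the N-glucosyltransferases UGT76C1 and UGT76C2), with changes of -0.24 and 0.01. The auxin lists held 2 of 17 genes of synthesis (median 0.57), 3 of 16 of conjugation and oxidation (-0.20) and 3 of 32 Aux/IAA repressors of auxin response (0.20). Of the 9 listed lateral root founder genes 2 were measured, with a median of -0.38. The 3 measured of 23 mitosis genes had a median of 0.41, positive under each scaling, and the 2 measured of 14 root hair genes one of 0.27.

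The question whether applied cytokinin altered the course of the 12 hours was tested as the difference between the time changes in trans-zeatin and in control. In limma 0 of 15605 probe sets passed (0%), with 1487 at an unadjusted p under 0.05 (9.53%) and a lowest adjusted p of 0.16. Read on the control arrays, which trans-zeatin does not share, 44 of the 50 called probe sets (88%) had a change of the same sign, beside 55.7% of all probe sets, and 20 of the 50 (40%) were called there as well. In control medium 73 probe sets were called (0.468%), and in trans-zeatin 61 of these 73 had the same direction. The 28 that rose in control (0.179%) had a median of 0.49 in trans-zeatin and the 45 that fell (0.288%) one of -0.59. Of the 50 changes, 44 were larger in size in trans-zeatin than in control, a difference in the direction that choosing them in trans-zeatin favours.

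The time change in estradiol, on arrays that also share none with trans-zeatin, was read in the same way and with the same shared estimate of spread. Of the 50, 47 (94%) had the same sign, beside 56.9% of all probe sets, and 28 (56%) were called. Estradiol medium gave 80 calls in all (0.513%), of which 72 had the same direction in trans-zeatin. Of the 50, 41 (82%) had the same sign in all 3 media, beside 34.8% of all probe sets, and 15 were called in all 3, GI and CHIL among them. There were 17 called in trans-zeatin and in neither other medium, XTH20 among them, but being called in one medium and missed in another was not a difference that passed.

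Between trans-zeatin and estradiol 2 probe sets passed the test of the difference (0.0128%), both higher in trans-zeatin and both without a gene name. The probe set 262908_at read 86.6 and 97.2 at 12 h and 187 and 186 at 24 h in trans-zeatin, while in estradiol it read from 146 to 208 and then 71.0 and 76.3. The difference was 2.14 (adjusted p = 0.017), with a fall of 1.17 ± 0.18 in estradiol and a change of 0.98 ± 0.19 in trans-zeatin that missed the threshold (adjusted p = 0.053). The probe set 263548_at read 1670 and 1520, then 2280 and 2430 in trans-zeatin, and from 1320 to 1600, then 820 and 704 in estradiol. It fell in estradiol by 0.93 ± 0.14 (adjusted p = 0.005), its trans-zeatin change of 0.56 ± 0.15 was not called (adjusted p = 0.18), and in control it rose by 0.79 ± 0.14. Its difference was 1.49 (adjusted p = 0.031). Both calls ended without trans-zeatin 24 h replicate 1 or 2, and without estradiol 24 h replicate 1 or 2.

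The probe sets that differed between estradiol and control at 12 h were chosen on arrays other than the trans-zeatin ones. That comparison cannot tell a response to cytokinin from one to estradiol itself. Of the 15605, 762 were called there (4.88%), 368 higher (2.36%) and 394 lower (2.52%) than in control. From 12 to 24 h of trans-zeatin, the 368 raised ones split evenly, 184 up and 184 down, with a median of -0.0045. Of these, 3 rose and 11 fell, 3.8% beside 0.32% of all probe sets. Both calls used a shared estimate of each probe set's spread, so a low estimate favoured both, and the excess cannot be read apart from that. The split was not stable: 39.7% lay above 0 without trans-zeatin 12 h replicate 1 (median -0.17) and 56.5% without replicate 2 (median 0.06). Of the 394 lowered ones, 295 (74.9%) had a positive change, beside 54.7% of all probe sets, with a median of 0.26, and 2 rose and none fell (0.508% called). Without single trans-zeatin arrays this share ran from 65.5% (beside 51.3% of all, without 12 h replicate 2) to 77.2% (beside 55.4%, without 12 h replicate 1). Chosen without the 2 arrays that stand apart, the lowered probe sets numbered 159, and 62.9% of them were positive (median 0.16), while 55.8% of the 267 raised ones were (median 0.05). Among those lowered at least 2-fold, 90 of 151 were positive.

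Gene families are described by their counts and medians beside the median of 0.04 over all probe sets. Of 28 lists with 470 genes, 17 had a measured member, with 32 genes in all, and of 38 families set by name, 25 had one. Besides the clock genes and the xyloglucan enzymes, the UDP-glycosyltransferases had a called member. These enzymes attach sugars to hormones, flavonoids and other small molecules, and of 34 measured, 1 fell (UGT78D2), none rose and 33 did not pass. Their median was -0.24, with 24 of 34 below 0 beside 7064 of all 15605 probe sets, and it was negative under each scaling tried. In control their median was -0.08 and in estradiol -0.12. After UGT78D2 the lowest p values were those of UGT72E1, which glucosylates lignin precursors (-1.02 ± 0.32), UGT73D1 (-1.08 ± 0.43) and UGT85A3 (0.87 ± 0.34).

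The organelle genomes, which encode parts of photosynthesis and respiration, showed no call. The 61 measured genes of the chloroplast genome had a median of -0.16 in trans-zeatin, with changes from -1.06 to 0.50, beside medians of 0.30 in control and 0.67 in estradiol. The 18 probe sets of 14 mitochondrial genes had a median of 0.27, with 16 of 18 above 0, beside 0.91 in control and 0.16 in estradiol. These values kept their sign under quantile normalization and median centring. All 7 measured late embryogenesis abundant and dehydrin genes, which protect dehydrating cells, had a positive change with a median of 0.56. The median was 0.42 in control and 0.06 in estradiol. In trans-zeatin 0 of 7 was called (lowest adjusted p = 0.22).

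Of 15 expansins, which loosen the wall, 11 were above 0 with a median of 0.11, and 0 were called. The 19 serine carboxypeptidase-like genes (median 0.04, which turned to -0.02 with centred arrays) and the 17 beta-glucosidases and glycosyl hydrolases (median 0.20) had no call either. The remaining families with at least 7 measured members, among them glutathione transferases, cytochrome P450s, tubulins and kinesins, sugar transporters, nitrate and peptide transporters, and glutaredoxins and thioredoxins, had medians between -0.07 and 0.22 and no call.

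**Figure D5:**
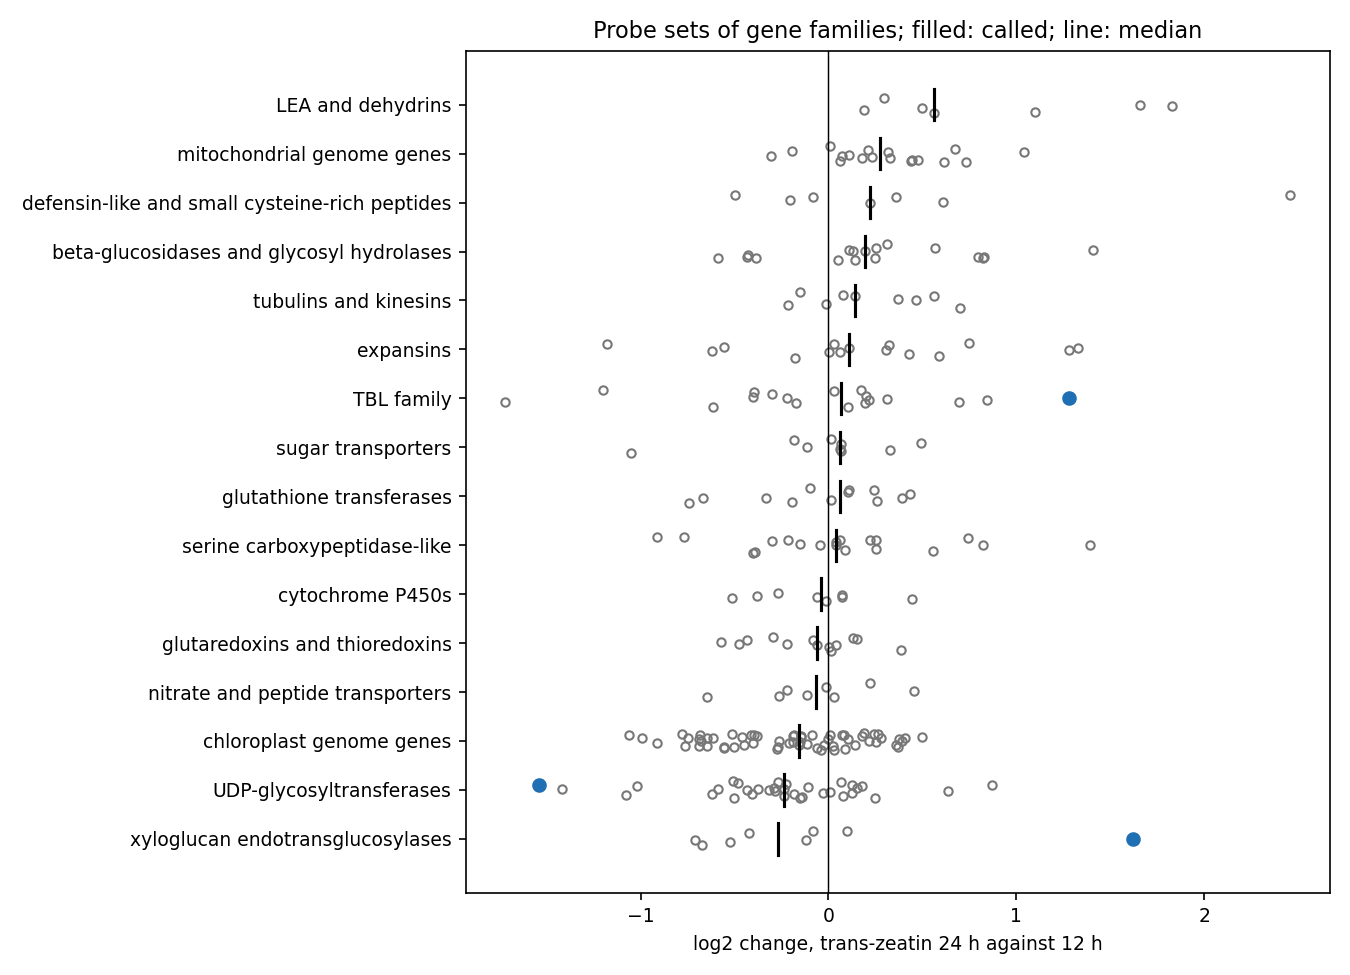
Change from 12 to 24 h of trans-zeatin (log2) of each measured member of the families with at least 7, with a line at each family's median and filled points for called members. The filled points are UGT78D2 at -1.54, XTH20 at 1.62 and TBL36 at 1.28, and the medians run from -0.27 to 0.56.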

How the data were processed

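Total RNA was labelled with biotin and hybridised to ATH1 arrays, 1 sample per array. The authors made the deposited intensity values with MAS5 and GCOS, per the submitters' processing notes; neither version nor setting is given in the sources used here. The 2% trimmed mean of each of the 14 arrays is 100, and no further scaling was applied. Of 22810 probe sets, 13513 have 1 gene, 503 several, 8730 none and 64 are controls, which were left out of the tests. Values were taken as log2 of signal plus 6.3 (20th percentile), and probe sets over 23 (40th percentile) in at least 2 arrays were kept. With limma 3.58.1 in R 4.3.3, group means were fitted over the 14 arrays, with variances moderated along an intensity trend (residual degrees of freedom 8, prior 5.96), two-sided tests and Benjamini-Hochberg adjustment over the 15605 kept. The method was tested on simulated data.

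The rule named up to 12 called genes in each direction with 1 gene and arrays that do not overlap, list members, 6 genes known for their difference from control and 3 unnamed probe sets. Members and lists were chosen with earlier results of these data known, and 5 name rules were corrected and 2 groups added after values were seen. Gene names come from the platform annotation and RefSeq (TAIR10.1). Replicate numbers did not pair arrays: residuals of 31 same-numbered pairs correlated from -0.27 to 0.19, with 3 over 0.1. Between groups of 2 arrays, replicates 1 and 2 give the same value by construction. The value of 0.151, between estradiol and trans-zeatin at 24 h, is therefore counted 2 times among the 3. Precision is limited by 2 arrays per trans-zeatin group. Alternatives were scaling, pseudocount, filter, variance trend, block, covariate and left-out arrays.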

Additional observations from a re-analysis of the deposited data

Results flagged for a closer look

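Both probe sets below are singled out because a test of the difference itself passed between the 12 to 24 h changes in trans-zeatin and in estradiol. The difference was 2.14 on the log2 scale for 262908_at and 1.49 for 263548_at, each higher in trans-zeatin, and neither has a gene name here. Of the 2 treatments compared, estradiol had the called time change in both, a fall, and both calls ended without any 1 of the 4 arrays of trans-zeatin or estradiol at 24 h. Groups of 2 or 3 arrays are too small to test a single array against the rest of its group, so none was tested in that way.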

How the results depend on the processing

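Of the alternatives tried, 25 per comparison, the count of 50 for trans-zeatin moved by over 1.5 times with the actin ratio as a covariate (7), without both arrays that stand apart (106), and without single trans-zeatin arrays: it ran from 10 (without 24 h replicate 1) to 128 (without 12 h replicate 1), with 28 without 24 h replicate 2 and 27 without 12 h replicate 2. With the arrays centred it was 50, split 13 higher and 37 lower. The difference from control stayed at 0 except for 1 probe set without control 12 h replicate 1 (AT3G28320) and 1 without trans-zeatin 12 h replicate 1 (AT5G07030, 2.15, adjusted p = 0.045), a range of 0 to 1. The 2 calls in the difference from estradiol became 1 with centred arrays or no filter and 0 with no intensity trend, with only the arrays compared or without the 2 arrays standing apart, and ran from 0 to 9 without single arrays. The control count of 73 was 48 with no filter, 46 with no trend and 1 with the covariate, and ran from 10 to 93 without single arrays. The estradiol count of 80 was 30 with only its own arrays, 121 without the 2 arrays standing apart and 9 with the covariate, and ran from 21 to 102. The replicate numbers did not pair the arrays (r = -0.07 between the trans-zeatin times); with the number as a replicate block the counts were 36 for trans-zeatin, 20 for control, 53 for estradiol, and 0 and 3 for the differences. Where an array was left out of a pair, the one that remained was assumed to vary like the other groups. Over the named genes and probe sets and all alternatives, no called change turned its sign. Of the values, 872 kept their side of the threshold, 166 lost a call and 5 gained one. The 872 include genes that were not called, whereas all 166 losses fell on called ones. With only the arrays of the groups compared, 15 of the 21 gene calls were lost. With no filter 9 were lost, with the replicate block 9 and with no intensity trend 7. Of the 21 gene calls, 21 were lost without trans-zeatin 24 h replicate 1 and 21 with the covariate, 2 with quantile normalization and 0 with the pseudocount doubled; COR27 and HYH were not tested under the stricter filter. The cause of these shifts was not tested. In trans-zeatin, signal near background limits CHIL, COR27, HYH, 250533_at, 249063_at and ATC at 24 h. It also limits AT1G62510, AT5G10130 and UGT85A3 at 12 h, and ARR15 and RR16 in control.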
